A study of Homo sapiens with 4 samples.

Results

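Hemidesmosomes fasten the keratin network of basal epithelial cells to laminin-332 in the basement membrane, and collagen VII ties that membrane to the connective tissue below. Integrin alpha6beta4 binds laminin outside the cell and plectin inside it, and the collagen XVII and BP230 proteins of the same plaque complete the link to keratin. Squamous carcinomas often keep these genes on and use laminin-332 and alpha6beta4 for migration and survival.

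The 9 genes described here are LAMA3, LAMB3, COL7A1, ITGA6, ITGB4, COL17A1, CD151, PLEC and DST, taken by name from 29437 genes listed in each deposited table, and all 9 passed the filter of a mean of at least 1 FPKM that left 12168 genes for testing. FPKM is a read count divided by the exonic length of the gene and by the total of the library. The cells were CAL27, an established line of human oral squamous cell carcinoma (OSCC). There were 2 libraries of the negative control and 2 of CCL20 overexpression, and the labels do not say whether the control line received a virus, nor whether the replicates were separate cultures, so p-values measure the spread between these libraries, which may be technical. CCL20, a secreted chemokine, was introduced by lentivirus, and RNA was taken after 48 hours, as the protocols in the labels state.

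Total counts were between 13681862 and 17860695 per library. CCL20 had 188 and 202 counts in negative control replicates 1 and 2, and 372 and 303 with overexpression. It rose 1.94-fold (edgeR: log2 fold change 0.95, SE 0.21, adjusted p = 0.0143). After the mRNA length correction described below its log2 fold change was 0.06 (SE 0.24, edgeR adjusted p = 0.916). Of 9 markers of squamous epithelium, 8 were above 1 FPKM in every library. Summed levels were 815 and 890 FPKM in the controls and 807 and 1100.1 FPKM with overexpression, most of it KRT5 and SFN. In FPKM, SFN, KRT17 and KRT14 were higher in both overexpression libraries than in both controls. TP63, CDH1, DSG3 and PKP1 were lower in both. TP63 was at 35.2 and 31.9 FPKM in the controls and 23.0 and 14.3 FPKM with overexpression. KRT5 and KRT6A lay on either side of the controls. FPKM are scaled by the total count, and on that scale the median log2 fold change of all tested genes was -0.20. The part of scale and of gene length in these directions was not tested. KRT14, whose reads can be shared with near-identical copies, was between 0.712 and 1.11 FPKM. PTPRC, the defining leukocyte marker, was at 0 in 3 libraries and at 0.00611 FPKM in the fourth. The 6 fibroblast markers summed to 4.72 and 5.58 FPKM in the controls and 2.93 and 3.51 FPKM with overexpression; COL1A1 was highest, at 1.65 to 3.70 FPKM, and DCN and COL3A1 were at 0.0107 FPKM or less in every library. The 3 endothelial markers summed to 8.81 and 8.21 FPKM in the controls and 5.27 and 5.10 FPKM with overexpression, nearly all of it CDH5 at 5.03 to 8.66 FPKM, while PECAM1 was at 0.0153 FPKM or less. The part of these markers in the results was not tested. The libraries also differed in the kind of gene they counted: the mean exonic length of the gene behind a read was 6226 and 6130 nt in the controls and 5313 and 5013 nt with overexpression, and values for this trend stand beside the results below.

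Among the 9 genes, 5 fell with CCL20 overexpression, PLEC, DST, LAMA3, ITGA6 and COL7A1, and CD151 rose. COL17A1, ITGB4 and LAMB3 did not pass the test. With each of 3 corrections for length, given further below, 0 of the 9 genes were called in either direction, and the median log2 fold change of the 9 genes was 0.013 with mRNA length corrected, -0.13 with exonic length corrected and -0.0012 with mRNA length, span and GC content corrected. The folds and calls given gene by gene are without these corrections. Uncorrected, the median log2 fold change was -0.66 over the 9 genes and 0.0019 over all 12168 tested genes. Of all tested genes 15.7% were called lower and 16.5% higher. A gene was called where edgeR gave it an adjusted p below 0.05, with the Benjamini-Hochberg adjustment made over all tested genes. In bulk RNA, fewer cells of a type and less RNA per cell cannot be told apart. CPM below is the read count scaled to the same total in each library after edgeR's TMM factors, which is the scale of the fold changes. On it the groups did not overlap for 7 of the 9 genes, against 71.6% of all tested genes. The share of all counts taken by the 9 genes was 0.458% and 0.457% in the controls and 0.265% and 0.307% with overexpression. The calls rest on few libraries. Without control replicate 1, 0 of the 9 genes passed in either direction, against 2.73% of all tested genes lower and 2.61% higher. Without control replicate 2 PLEC alone passed (log2 fold change -1.07, edgeR adjusted p = 0.0389), against 4.39% of all tested genes lower and 3.74% higher. Without overexpression replicate 1, 6 genes were lower and 1 higher, against 31.5% of all tested genes lower and 30.8% higher, and without overexpression replicate 2, 8 were lower and 1 higher, against 26.6% of all tested genes lower and 26.2% higher. In each of these fits the lone library is assumed to vary like the remaining pair.

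**Figure D1:**
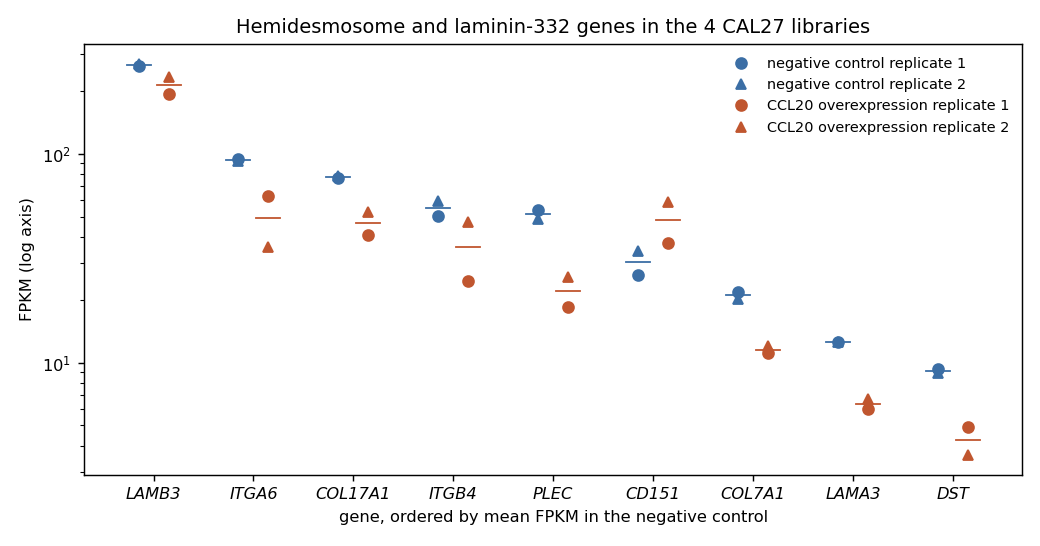
FPKM (log axis) of the 9 genes in each library, ordered by the mean in the negative control; circles are replicate 1, triangles replicate 2 and lines the mean of 2 libraries. LAMB3 lies highest at 193 to 271 FPKM and DST lowest at 3.60 to 9.32 FPKM, and CD151 alone has both overexpression libraries above both controls.

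Laminin-332 is a trimer that holds the alpha3 and beta3 chains made from LAMA3 and LAMB3. LAMA3 (ENSG00000053747; GRCh38 chromosome 18, 23689443 to 23956222, plus strand) encodes the alpha3 chain, which carries the domains bound by integrins. It was at 170.3 and 173 CPM in the controls and at 90.9 and 109 CPM with overexpression. All values of the controls lay above those with overexpression. It fell 1.72-fold (edgeR: log2 fold change -0.78, SE 0.17, adjusted p = 0.0130).

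LAMB3 (ENSG00000196878; chromosome 1, 209614870 to 209652466, minus strand) encodes the beta3 chain. Its values were 1150.3 and 1184 CPM in the controls and 936.5 and 1220.5 CPM with overexpression. The overexpression libraries lay on either side of the controls, and the log2 fold change was -0.11 (SE 0.18, edgeR adjusted p = 0.636). Per exonic length, LAMB3 stood at 21.2 and 21.5 times the FPKM of LAMA3 in the controls and at 32.3 and 35.0 times with overexpression. The mRNA of LAMB3 is the shorter, with 4055 nt against 10661 nt for LAMA3. The part of length in these ratios was not tested.

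LAMA3 and DST each have a second start inside the gene, from which epithelial cells are known to make the short alpha3A chain and BP230. In GENCODE 29 the shorter transcripts are LAMA3-201 with 5671 nt, of which 5172 are coding, and DST-205 with 8999 nt, of which 7947 are coding. Counts per gene do not show which start was used. The 250 bases before the inner LAMA3 start and before a LAMB3 start are printed because these starts belong to chains of one trimer and hold the same motif. They are RefSeq windows of build GRCh38.p14, chr18:23872770-23873019 on the plus strand and chr1:209651375-209651624 on the minus strand. Capitals mark TGANTCA, the site of the AP-1 factors, which are active in keratinocytes.
LAMA3: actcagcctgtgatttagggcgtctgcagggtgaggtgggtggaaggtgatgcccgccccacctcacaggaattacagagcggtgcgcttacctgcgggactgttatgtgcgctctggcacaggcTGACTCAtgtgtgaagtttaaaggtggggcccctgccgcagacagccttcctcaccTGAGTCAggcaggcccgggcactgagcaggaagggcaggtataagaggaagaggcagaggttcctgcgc
LAMB3: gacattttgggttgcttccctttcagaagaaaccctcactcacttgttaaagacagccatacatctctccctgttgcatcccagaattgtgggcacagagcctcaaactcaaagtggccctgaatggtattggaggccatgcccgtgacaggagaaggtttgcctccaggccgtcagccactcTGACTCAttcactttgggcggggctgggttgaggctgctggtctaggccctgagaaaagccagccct
The LAMA3 window holds the motif at 125 and 69 bases before the start, as TGACTCA and TGAGTCA, and the LAMB3 window at 67 bases before it, as TGACTCA. The search covered 11 RefSeq windows of 6 of the 9 genes, LAMA3, LAMB3, COL17A1, COL7A1, ITGA6 and DST. It did not cover the other genes, so the count does not speak for all 9. The motif, whose reverse complement is the same letters, was in 2 of these 11, the windows printed. The other 2 LAMB3 windows do not hold it. Of 35116 RefSeq promoter windows of 250 bases, 6.57% held it. A match of letters does not show that a factor binds.

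COL7A1 (ENSG00000114270; chromosome 3, 48564073 to 48595267, minus strand) encodes collagen VII, the protein of the anchoring fibrils. It was at 225 and 209 CPM in the controls and at 127 and 148 CPM with overexpression. No value of one group reached the other. It fell 1.58-fold (edgeR: log2 fold change -0.66, SE 0.17, adjusted p = 0.0207).

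ITGA6 (ENSG00000091409; chromosome 2, 172427354 to 172506282, plus strand) and ITGB4 (ENSG00000132470; chromosome 17, 75721328 to 75757818, plus strand) encode the subunits of the laminin receptor alpha6beta4. ITGA6 was at 572 and 561 CPM in the controls and at 426 and 260.0 CPM in overexpression replicates 1 and 2. It lay below the controls in both, most in replicate 2, and fell 1.65-fold (edgeR: log2 fold change -0.72, SE 0.23, adjusted p = 0.0456). The call of ITGA6 ended with the filterByExpr filter (edgeR adjusted p = 0.0602) and with limma on log2(FPKM + 0.1) (limma adjusted p = 0.0644). Of the 6533 nt of exonic length of ITGA6, 351 nt in sum are shared with 3 genes of the opposite strand. The strand setting is not given in the sources used here. ITGB4 was at 316 and 374 CPM in the controls and at 173 and 353 CPM with overexpression, so that replicate 1 lay below both controls and replicate 2 between them. Its log2 fold change was -0.39 (SE 0.30, edgeR adjusted p = 0.336). Without overexpression replicate 1 the log2 fold change of ITGB4 was 0.03, and without replicate 2 it was -0.99. For ITGA6 these values were -1.13 and -0.41. The FPKM ratio of ITGB4 to ITGA6 was 0.534 and 0.644 in the controls, 0.391 in overexpression replicate 1 and 1.31 in replicate 2, so the 2 overexpression libraries lay on opposite sides of the controls.

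COL17A1 (ENSG00000065618; chromosome 10, 104031286 to 104085957, minus strand) encodes collagen XVII, a transmembrane collagen also known as BP180. Its values were 503 and 519 CPM in the controls and 298 and 414 CPM with overexpression. Both overexpression libraries lay below both controls, and the difference missed the threshold (edgeR: log2 fold change -0.52, SE 0.19, adjusted p = 0.0676). COL17A1 passed with DESeq2 (log2 fold change -0.52, DESeq2 adjusted p = 0.0423). It also passed by total count, on a TPM scale, by limma with either pseudocount, at a mean FPKM of at least 5 and with a replicate block. The adjusted p of these fits, from edgeR or limma, lay between 0.00556 and 0.0480. It missed with DESeq2 or upper-quartile factors in edgeR, without a filter, with filterByExpr, with coding genes only and with each length correction.

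CD151 (ENSG00000177697; chromosome 11, 832843 to 839831, plus strand) encodes a tetraspanin that associates with laminin-binding integrins. It was at 96.3 and 126 CPM in the controls and at 152 and 258 CPM with overexpression. Each overexpression library lay above each control. It rose 1.85-fold (edgeR: log2 fold change 0.89, SE 0.26, adjusted p = 0.0361). On a TPM scale the log2 fold change was 0.37 and the call ended (edgeR adjusted p = 0.246). It also ended by total count, by limma with either pseudocount and at a mean FPKM of at least 5, with adjusted p from edgeR or limma between 0.0518 and 0.141. Of its exonic length of 3938 nt, 298 nt are shared with 2 genes of the opposite strand, among them POLR2L with 257 nt, and the strand setting is not given in the sources used here.

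PLEC (ENSG00000178209; chromosome 8, 143915147 to 143976734, minus strand) and DST (ENSG00000151914; chromosome 6, 56457987 to 56954628, minus strand) encode plectin and dystonin, the plakins that tie keratin to the plaque; BP230 is the epithelial form of dystonin. PLEC was at 852 and 769 CPM in the controls and at 323 and 488 CPM with overexpression, a separation of the groups wider than the spread within either. It fell 1.999-fold (edgeR: log2 fold change -0.999, SE 0.21, adjusted p = 0.0123). DST was at 366 and 352 CPM in the controls and at 216 and 169.7 CPM with overexpression. The control libraries lay close together and above both others. DST fell 1.86-fold (edgeR: log2 fold change -0.90, SE 0.18, adjusted p = 0.00914). The FPKM ratio of PLEC to DST was 5.79 and 5.44 in the controls, 3.72 in overexpression replicate 1 and 7.16 in replicate 2.

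Levels were compared between genes only per length. In the controls the order by FPKM was LAMB3 (267 ± 4.50, SD, n = 2), ITGA6 (93.1 ± 1.65), COL17A1 (77.6 ± 1.43), ITGB4 (54.8 ± 6.24), PLEC (51.2 ± 3.88), CD151 (30.3 ± 5.57), COL7A1 (21.0 ± 1.14), LAMA3 (12.5 ± 0.0836) and DST (9.11 ± 0.286). Only ITGB4 and PLEC had overlapping libraries there. With overexpression LAMB3 stayed highest at 213 ± 28.9 FPKM. ITGA6 (49.4 ± 19.3), CD151 (48.1 ± 15.3), COL17A1 (46.7 ± 8.37) and ITGB4 (35.8 ± 15.8) overlapped each other. PLEC (22.1 ± 5.23), with 1 library above the lower one of ITGB4, COL7A1 (11.5 ± 0.667), LAMA3 (6.33 ± 0.494) and DST (4.27 ± 0.944) followed. Over the 4 libraries LAMB3 was at the percentile of 98.8 among tested coding genes by mean FPKM, ITGA6 at 94.9 and DST at 46.6. The deposited FPKM divide by all annotated exons, which for DST are 42341 nt against a principal mRNA of 17756 nt, and for CD151 are 3938 nt against 1545 nt. Divided by the principal mRNA instead, the control level of DST was 21.7 ± 0.681 on the same scale, above LAMA3 at 17.3 ± 0.115, and that of CD151 was 77.1 ± 14.2, against 62.6 ± 7.13 for ITGB4, whose libraries overlapped those of CD151, and 57.1 ± 4.32 for PLEC, whose libraries did not (SD, n = 2 each). The order of these genes therefore depends on the length used.

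The fold changes of the 9 genes were then set against coding genes of like mRNA length, taken as the median length of the principal transcripts in GENCODE 29. PLEC, at 15249 nt, had a log2 fold change of -0.999, and the 200 tested coding genes nearest to it in length, from 10887 to 21055 nt, had a median of -0.93, with 148 of the 200 called lower. PLEC stood at the percentile of 42.0 among them, where 50 would be the middle. DST, at 17756 nt, has 17 longer tested coding genes. Its 200 neighbours ran from 10938 to 27174 nt with a median of -0.92, and DST with -0.90 stood at the percentile of 52.0. Of these neighbours 17 were longer than DST, and 34 of the neighbours of PLEC were longer than PLEC. Both sets are thus mostly shorter genes, and their ranges largely overlap. With the 100 nearest genes the medians were -1.02 for DST and -0.997 for PLEC, and the percentiles 58 and 49. LAMA3 (10661 nt, log2 fold change -0.78) had neighbours with a median of -0.82 and stood at 55.0. COL7A1 (9276 nt, -0.66) had neighbours with a median of -0.73 and stood at 56.5. For these 4 giant mRNAs the difference from the median of genes of like length was between -0.07 and 0.07 on the log2 scale. By exonic length the neighbour medians were higher, -0.67 for PLEC and -0.73 for DST, and the percentiles were 29 and 42. Among neighbours within 4-fold of the mean FPKM, PLEC was at the percentile of 21.0 against a median of -0.71, LAMA3 at 54.0, COL7A1 at 56.0 and DST at 51.5. For PLEC these neighbours ran from 6897 to 16219 nt, against 10887 to 21055 nt before, so they matched it less closely in length. The closeness of PLEC to its neighbours therefore depends on how they are chosen.

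The shorter genes spread more about their neighbours. COL17A1, with 5649.5 nt, was at the percentile of 54.0, LAMB3 at 65.0 and ITGB4 at 66.0. Among neighbours of like FPKM, LAMB3 was at the percentile of 27. These matched its length less closely, with 2196 to 6676 nt against 3991 to 4119 nt before. Their median log2 fold change was 0.13, against -0.25 before. ITGA6, with 5618 nt, had a log2 fold change of -0.72 against a neighbour median of -0.54 and was lowest of the 9, at the percentile of 26.0. CD151, with 1545 nt, had a log2 fold change of 0.89 against 0.63, and 95 of its 200 neighbours were called higher. It was highest of the 9, at the percentile of 80.0. By exonic length CD151 was at the percentile of 95 against a neighbour median of 0.11, and ITGA6 at 11 against -0.21. COL17A1, LAMB3 and ITGB4 were at 31, 41.5 and 41.5 by that length. The distance of CD151 and ITGA6 from their neighbours therefore depends on the length used. With the inner starts of LAMA3 and DST, their percentiles were 23.0 among genes of 5520 to 5826 nt and 34 among genes of 8400 to 9644 nt. The place of both genes among genes of like length therefore depends on the transcript, which gene counts do not show. The percentiles also turned on single overexpression libraries. Without overexpression replicate 1 ITGB4 was at 90.5, PLEC at 70.5 and ITGA6 at 13.0, and without replicate 2 they were at 10.0, 13.0 and 55.5. CD151 was at 87.5 without replicate 1 and at 44.5 without replicate 2.

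**Figure D2:**
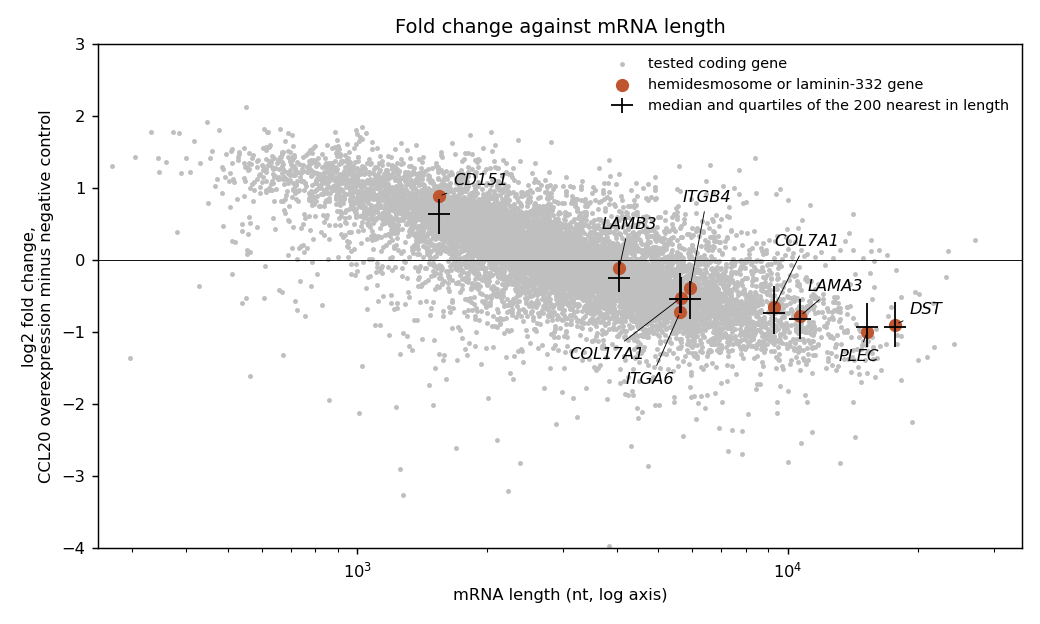
Log2 fold change (CCL20 overexpression minus negative control) against mRNA length (log axis) for tested coding genes in grey and the 9 genes in colour; black bars give the median and quartiles of the 200 coding genes nearest in length to each, and 2 coding genes lie outside the axes. Each of the 9 points lies near the bar of its own length class, ITGA6 0.19 below and CD151 0.25 above the median.

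With a correction for mRNA length, in which the trend of each library over length was fitted across coding genes and removed, 0 of the 9 genes passed edgeR's test, and 0 had an unadjusted p under 0.05. The background in that fit was 3.63% of 10571 coding genes called higher and 3.19% lower. The corrected log2 fold changes were 0.01 (SE 0.19) for LAMA3, 0.17 (SE 0.18) for LAMB3, 0.09 (SE 0.18) for COL7A1, -0.24 (SE 0.20) for ITGA6 and 0.16 (SE 0.33) for ITGB4. They were -0.01 (SE 0.21) for COL17A1, 0.32 (SE 0.23) for CD151, -0.10 (SE 0.23) for PLEC and 0.0094 (SE 0.15) for DST. The edgeR adjusted p lay between 0.438 and 0.983. The median over the 9 genes was 0.013, against 0.025 over all genes in the fit. The SE allow changes of some size in single genes, so the values do not show that expression was equal. With gene span and GC content added to the correction, 0 of the 9 passed, against 13.9% of coding genes called higher and 11.1% lower. PLEC came nearest, with a log2 fold change of -0.28 (SE 0.10, edgeR adjusted p = 0.0665), and was the only gene of the 9 with an unadjusted p under 0.05. ITGA6 kept a value of -0.24 (SE 0.13) and CD151 one of 0.24 (SE 0.13), with edgeR adjusted p of 0.218 and 0.219. With exonic length corrected instead, CD151 stayed at 0.77 and ITGA6 at -0.51 (edgeR adjusted p = 0.0848 and 0.156). The others lay between -0.28 for PLEC and 0.092 for DST in that fit. How far CD151 and ITGA6 moved with correction therefore depends on the length used.

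**Figure D3:**
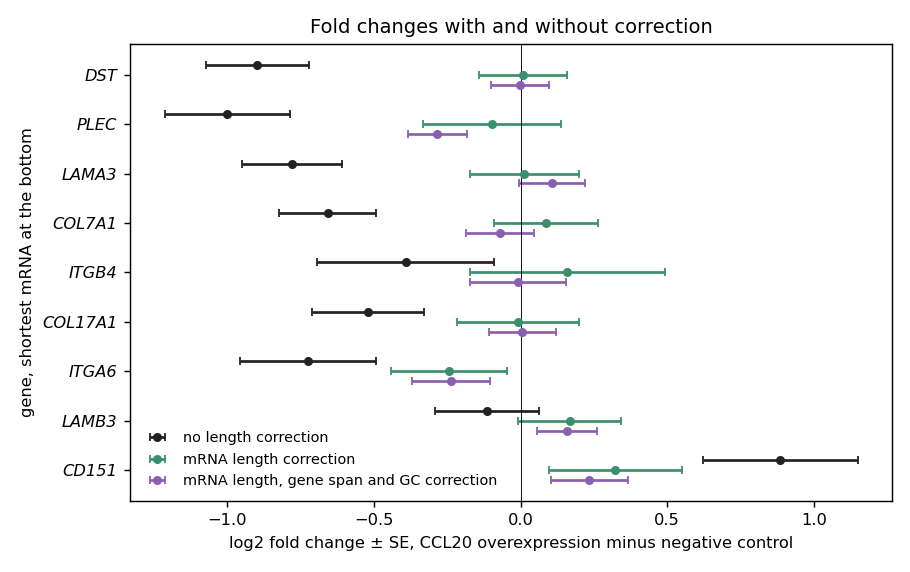
Log2 fold change ± SE of the 9 genes, the gene with the shortest mRNA at the bottom, without correction (black), with the mRNA length correction (green) and with span and GC content corrected as well (purple). Uncorrected values run from 0.89 for CD151 to -0.999 for PLEC; the corrected ones lie between -0.28 and 0.32.

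The overexpression libraries differed from each other along the GC content of the mRNA. ITGA6 and DST, with a GC content of 42.9% and 42.2%, were lower in replicate 2 than in replicate 1, by log2 differences in CPM of -0.71 and -0.35. The other 7 genes, with a GC content of 50.7% to 67.0%, were higher in replicate 2, from 0.22 for COL7A1 to 1.03 for ITGB4, with 0.77 for CD151 and 0.59 for PLEC. Among tested coding genes the median of this difference was 0.52 for the 1733 genes with a GC content of at least 60% and -0.33 for the 3750 genes under 45%. Spearman's rho of the difference with GC content was 0.75 across 10571 coding genes, which share these 2 libraries and are not independent replicates. In the controls rho was 0.38, and the differences of the 9 genes lay between -0.15 for PLEC and 0.39 for CD151. With span and GC content corrected as well as length, the difference between the overexpression replicates was 0.04 for PLEC, 0.03 for LAMB3 and -0.14 for DST. It was 0.58 for ITGB4, -0.41 for ITGA6, 0.28 for COL17A1 and 0.29 for CD151, all smaller than before. LAMA3 was at 0.27, against 0.26 before, and COL7A1 turned from 0.22 to -0.28. The opposite placing of the integrin subunits in the overexpression libraries was smaller on that scale and still present.

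**Figure D4:**
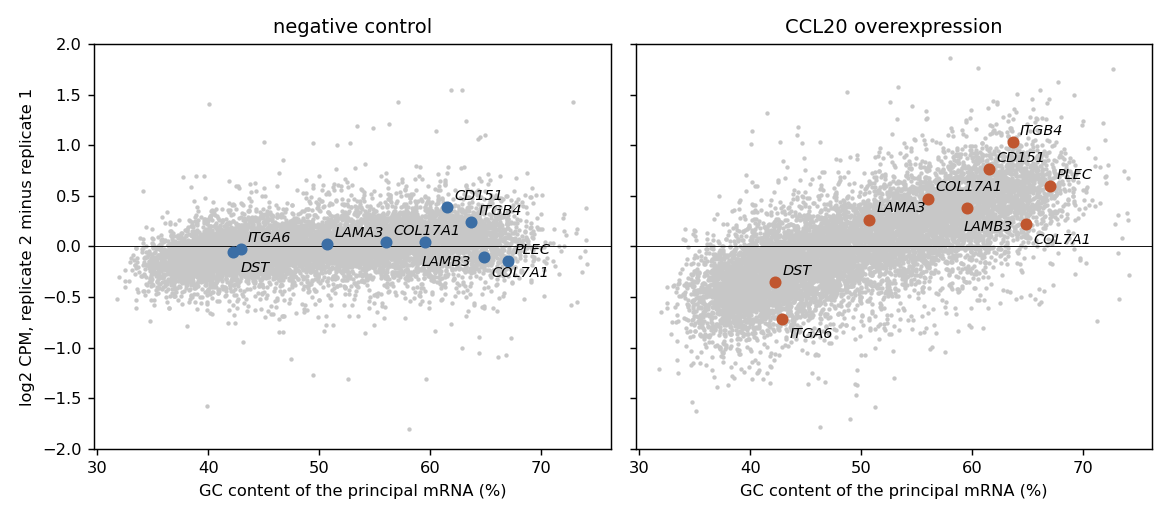
Difference in log2 CPM between replicate 2 and replicate 1 against the GC content of the principal mRNA, for the negative control (left) and CCL20 overexpression (right); grey points are tested coding genes, of which 6 lie outside the axes on the right, and coloured points the 9 genes. On the right ITGA6 and DST lie below 0 and the other 7 genes above it, up to 1.03 for ITGB4.

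Among the other laminin chains, LAMC1, LAMA5 and LAMB1 were among those that fell. Of 10 further chains, 5 were tested, 4 fell and 0 rose. LAMC1, the gamma1 chain of most basement membranes, fell 2.02-fold, with 49.4 ± 0.874 FPKM in the controls and 21.2 ± 0.309 FPKM with overexpression (SD, n = 2 each, edgeR adjusted p = 0.00490). LAMA5 and LAMB1 fell 1.82- and 1.45-fold (edgeR adjusted p = 0.0142 and 0.0418), and LAMB2 had a log2 fold change of -0.52 (edgeR adjusted p = 0.251). Of 5 further plakins, 4 were tested, 2 fell and 0 rose, with a median of -0.76. MACF1, a crosslinker of actin and microtubules, fell 2.24-fold and DSP, desmoplakin of the desmosome, 2.01-fold (edgeR adjusted p = 0.00434 and 0.00529). PPL and EVPL had log2 fold changes of -0.51 and -0.39 (edgeR adjusted p = 0.0926 and 0.352). Over all tested genes 15.7% were called lower. The chains and plakins named here have mRNAs of 5658.5 nt (LAMB2) to 24319 nt (MACF1), and long mRNAs were called lower more often. Of the 200 coding genes nearest in length to ITGA6, 42.5% were called lower, and of those nearest to PLEC 74.0%. Values corrected for length are given below.

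Among 21 genes whose products bind or signal with hemidesmosome and laminin-binding integrin proteins, 18 were tested, 10 fell and 1 rose, with a median of -0.60, where 15.7% of all tested genes were lower and 16.5% higher. EGFR, the receptor of epidermal growth factor, fell 2.10-fold, with 91.2 ± 3.82 FPKM in the controls and 37.9 ± 4.94 FPKM with overexpression (SD, n = 2 each, edgeR adjusted p = 0.00477). VCL, FERMT1 and SHC1, which encode vinculin, kindlin-1 and an adaptor of growth factor receptors, fell 1.85-, 1.82- and 1.75-fold (edgeR adjusted p = 0.00649, 0.00852 and 0.0101). CD81, a tetraspanin like CD151, rose 1.97-fold (edgeR adjusted p = 0.0143) on an mRNA of 1520 nt. The tetraspanin gene CD9 had a log2 fold change of 0.44 and KRT5, the keratin gene of basal cells, one of 0.18 (edgeR adjusted p = 0.0626 and 0.544). Of 18 genes for shedding, processing and collagen folding, 16 were tested, 4 fell and 1 rose, with a median of -0.35, beside the same shares of 15.7% and 16.5%. ADAM17, ADAM10 and ADAM9, membrane proteases that can shed collagen XVII, fell 2.58-, 1.60- and 1.60-fold (edgeR adjusted p = 0.0168, 0.0344 and 0.0373). P4HB, the beta subunit of prolyl 4-hydroxylase, fell 1.52-fold (edgeR adjusted p = 0.0205), and PPIB, a prolyl isomerase of collagen folding, rose 1.83-fold (edgeR adjusted p = 0.0247). COLGALT1 and P4HA1 had log2 fold changes of -0.31 and 0.014 (edgeR adjusted p = 0.152 and 0.966).

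Once mRNA length was corrected, 2 of the 43 tested genes of these 4 lists were lower and 0 were higher, where 3.19% of coding genes were lower and 3.63% higher. They were SHC1 (log2 fold change -0.74, edgeR adjusted p = 0.0299) and P4HB (-0.66, edgeR adjusted p = 0.0299). ADAM17 and ITGB1, the latter the gene of the integrin beta1 subunit and named here after its values were seen, had larger corrected log2 fold changes that missed the threshold, -1.04 and -0.91 (edgeR adjusted p = 0.0809 and 0.0920), against -1.36 and -1.11 uncorrected. The corrected medians were -0.04 for the laminin chains, -0.07 for the plakins, -0.17 for the binding and signalling partners and -0.10 for the processing enzymes. With gene span and GC content added, 8 of the 43 were lower and CD81 was higher (log2 fold change 0.41, edgeR adjusted p = 0.0163), where 11.1% of coding genes were lower and 13.9% higher. ADAM17 and ITGB1 were among the 8 (log2 fold changes -1.05 and -0.85, edgeR adjusted p = 0.00665 and 0.00550). On that scale 0 of 5 laminin chains passed, with the edgeR adjusted p of LAMC1 at 0.0826.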

How the data were processed

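Libraries were made from 1.5 µg of RNA each, 2 per group, per the labels' protocols. HISAT2, HTSeq 0.13.5 and GRCh38 are named in the submitters' processing notes. Which annotation and strand setting were used is not given in the sources used here. The deposited counts are the authors' raw reads for each gene, without normalization. The FPKM deposited by the authors imply whole-number gene lengths, of which 99.7% equal the union exon length in GENCODE 29, used for positions, transcripts and gene type. All 29437 identifiers matched. Per-gene chi-square values (6.45 in the control pair, 38.02 in the overexpression pair) were above sampling noise, so no pair was taken as repeat deposits of one library; this does not show separate cultures.

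The 9 genes, the lists and the tests were chosen with earlier results of these data known. edgeR 4.0.16 (R 4.3.3; TMM, glmQLFit and glmQLFTest, two-sided, Benjamini-Hochberg adjustment) was fitted where the mean FPKM reached 1 or more; each SE was derived from the F statistic and the fold change. The edgeR fit was also run on counts simulated with the same spread setting for all genes and no trend of length or GC content. These data have such trends, so that run does not show how the test behaves on them. limma 3.58.1 and DESeq2 1.42.0 were alternatives. Length corrections fitted, per library, a natural spline with 5 degrees of freedom to deviations of log2 CPM (prior count 2) and used it as an offset. Named from each list were up to 4 genes per direction past the threshold and up to 2 of the highest others; genes most like a member were sought among coding genes whose mean FPKM reached 20. Tables and plots used Python 3.11.15 with pandas 2.3.3, scipy 1.17.1 and matplotlib 3.10.9. Counting error only is covered where counts are low. The values of 1 listed gene are not reported here.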

Additional observations from a re-analysis of the deposited data

How the results depend on the processing

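The count of 5 lower and 1 higher of the 9 genes was 8 and 0 on a TPM scale, where the median of all genes moved to -0.49, and 0 higher by total count, by limma on log2(FPKM + 1) and log2(FPKM + 0.1), and at a mean FPKM of at least 5. Of all tested genes, 37.1% were lower and 4.11% higher on the TPM scale, and 10.5%, 10.1%, 7.53% and 19.3% were higher in the other fits in that order. All 3 length corrections, on mRNA length, exonic length, or mRNA length with span and GC content, gave 0 lower and 0 higher, where the exonic one called 4.83% of coding genes lower and 8.47% higher. The median log2 fold change of the 9 genes was -0.87 by total count, -1.16 on a TPM scale, -0.81 and -0.86 by limma with the larger and the smaller pseudocount, and 0.013, -0.13 and -0.0012 with the corrections in that order. Relative to the median of all genes it was between -0.64 and -0.67 under every scaling by factors, total count, TPM or limma. Of the partner genes, 20 were lower and 2 higher; on a TPM scale these were 32 and 0, by total count 1 was higher, by limma 1 and 0, and with the corrections 2, 4 and 8 were lower and 0, 1 and 1 higher. The corrections remove any difference between the groups that follows the corrected traits, whatever its source, and the cause was not tested. Leaving out 1 library gave 0 to 8 lower and 0 to 1 higher of the 9 genes, 1 to 31 lower and 0 to 6 higher of the partner genes, and median percentiles of 36.5 to 74.0 against 55.0. The shares of all tested genes called lower or higher also moved widely across the fits with 1 library left out, as given in the Results. The ranges for the 9 genes and for the partner genes therefore do not set these genes apart from the rest. The median percentile was 41.5 by exonic length and 31.5 by the shortest full coding transcript.

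Signs turned with the mRNA length correction for LAMA3 (0.013), LAMB3 (0.17), COL7A1 (0.086), ITGB4 (0.16) and DST (0.0094), with the exonic one for DST (0.092), and with span and GC content for LAMA3 (0.11), LAMB3 (0.16) and COL17A1 (0.0066). Without 1 library the log2 fold change ran from -0.31 to 0.058 for LAMB3 and from -0.99 to 0.028 for ITGB4. With the mRNA length correction and 1 library left out, added after seeing the data, it ran from -0.23 to 0.22 for LAMA3, -0.078 to 0.38 for LAMB3, -0.35 to 0.27 for COL17A1, -0.13 to 0.28 for COL7A1, -0.56 to 0.011 for ITGA6, -0.55 to 0.63 for ITGB4, -0.089 to 0.10 for DST, -0.53 to 0.24 for PLEC and -0.014 to 0.59 for CD151.

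With the replicate block 7 of the 9 genes were lower and 1 higher, against 24.0% and 23.3% of all tested genes, and 27 of the partner genes were lower and 3 higher. Deviations of same-numbered libraries correlated at 0.27 across genes; the labels do not say that a number marks a shared culture. The depth, at least 1348 counts for each of the 9 genes in each library, leaves little counting error, so the 2 libraries per group limit the precision.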

Other observations

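For each of the 9 genes the coding gene with the most similar pattern over the 4 libraries was sought among 2283 others with a mean FPKM of at least 20, by the root mean square difference of log2 CPM deviations. It was PACS1 for LAMA3 (difference 0.029), FSCN1 for LAMB3 (0.031), ABTB2 for COL17A1 (0.020), SCRN1 for COL7A1 (0.047), ITCH for ITGA6 (0.016), IQGAP1 for DST (0.042) and RUVBL2 for CD151 (0.030). With 4 libraries such likeness is common: 85 genes lay within 0.1 of LAMB3 and 38 within 0.1 of CD151. ITGB4 had 0 genes within 0.1, its nearest being ARHGDIA at 0.12, and PLEC had 1, TTYH3 at 0.083.

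ILK, the gene of integrin-linked kinase, had 2 and 8 counts in the controls and 0 and 3 with overexpression, under the filter. VCL and TLN1, of the same integrin adhesions, had 1452 to 7850 counts per library. These are reads assigned to each gene, and whether reads of ILK were lost in the assignment was not tested. The counts therefore do not show that the cells lack ILK.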
